A study of Homo sapiens with 9 samples.

Results

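Cells kept in the kinase inhibitor sorafenib were compared with untreated cells of the same line, in 3 libraries each, across all genes of the deposited count tables. These 6 of the 9 libraries in the series were taken by their labelled treatment, and the comparison was made on 16159 genes with enough counts. The line is labelled HCT-15, a human colorectal adenocarcinoma line of genotype WT, and was grown in RPMI1640 medium with 10% fetal bovine serum at 37 °C and 5% CO2. Sorafenib-resistant cells are described as made in the same way as the oxaliplatin cells of the series, which started at 0.5 µM oxaliplatin for 7 days, were moved through 1, 2 and 4 µM between day 10 and day 30 and then stayed in 4 µM. The doses and times of sorafenib, and whether the drug was in the medium when RNA was taken, are not given in the sources used here. Nothing in the labels says that the 3 libraries of a group came from separate cultures. Every p-value here therefore sets a group difference against the spread of libraries within groups, and that spread may be technical. In the main fit the spread was estimated over all 9 libraries of the series. The series asks about inositol hexaphosphate, endoplasmic reticulum stress and senescence in chemotherapy of this cancer, and this comparison shows which transcripts differ in cells adapted to sorafenib.

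Sorafenib binds RAF kinases and several receptor tyrosine kinases, among them the VEGF and PDGF receptors. RAF passes the signal of activated RAS through MEK to ERK, and ERK induces genes in the nucleus. Some of these are immediate early genes such as EGR1, and others encode the proteins that hold the pathway back, namely Sprouty and SPRED proteins and the dual-specificity phosphatases DUSP5 and DUSP6, together with the ETS factors ETV1, ETV4 and ETV5. The DNA-binding repressor CIC holds back ETV and SPRED genes until ERK releases it.

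Total counts were 17138210 to 19780645 in the untreated and 17489612 to 18918545 in the sorafenib libraries, and 22564 to 24240 genes had at least 1 count. Over the 6 libraries the first principal component of log2 CPM (counts scaled to a common library size) held 42.5% of the variance and placed all untreated libraries below all sorafenib libraries. Untreated 1 at -6.52 and sorafenib 1 at 14.7 lay between the other untreated libraries, at -53.6 and -39.4, and the other sorafenib libraries, at 44.5 and 40.4. Cytosolic ribosomal protein genes took 6.27% to 7.16% of the counts in untreated libraries, 6.67% in sorafenib 1 and 5.23% in sorafenib 2 and 3. The label of the line was checked against marker genes. Of 26 colorectal epithelial markers 20 had a median under 1 CPM in the 6 libraries and 13 had no count, while among 22 markers of the kidney epithelium and its carcinomas 9 reached a median of at least 10 CPM. Summed, the colorectal markers came to 1360 to 1734 CPM in untreated and 1184 to 1490.0 CPM in sorafenib libraries, and the renal ones to 749 to 1094 and 1075 to 1256 CPM. Of 20 immune cell markers 18 had a median under 1 CPM. The markers therefore go against the labelled colorectal identity in both groups, and the cells are called here by their treatment.

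The quasi-likelihood test of edgeR, adjusted over all tested genes by the Benjamini-Hochberg method, called 775 genes at an adjusted p under 0.05, or 4.80%. Of these 456 (2.82%) were higher and 319 (1.97%) lower in sorafenib, 314 changed at least 2-fold (201 higher, 113 lower), and 676 were protein-coding. In every one of the 775 the groups did not overlap, with 3 sorafenib values above or below all 3 untreated ones, which was so for 29.8% of all genes tested (15.5% above, 14.3% below). The number of calls turned on single libraries. Leaving out untreated 1 gave 1641 calls and leaving out sorafenib 1 gave 1745, whereas 149, 153, 139 and 113 genes were called without untreated 2, untreated 3, sorafenib 2 and sorafenib 3, and 635, 637, 647 and 664 of the 775 calls ended. With both libraries numbered 1 left out 2934 genes were called. A core of 99 genes, or 0.613% of those tested, was called in the fit of all libraries and in each of the 6 fits with 1 library left out, 67 of them higher and 32 lower. A gene named below as one of the 99 belongs to this core. Counts of list members below are to be read beside the shares of all genes given here.

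**Figure D1:**
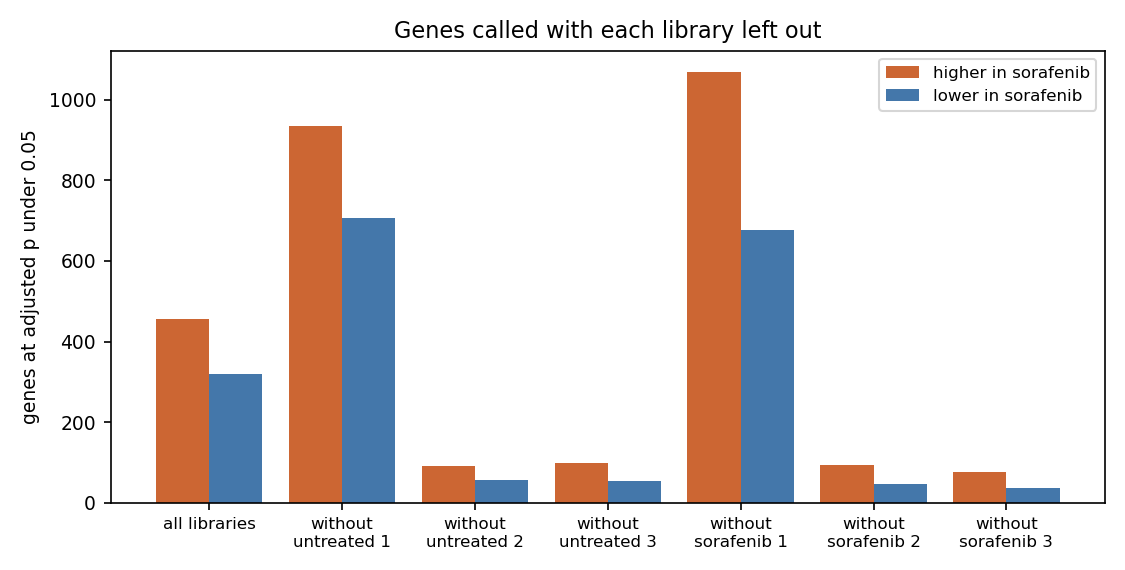
Number of genes called higher (orange) and lower (blue) in sorafenib than in untreated cells at an adjusted p under 0.05, with all libraries and with each of the 6 libraries left out (x axis). The bars rise without untreated 1 (1641 calls in all) or sorafenib 1 (1745) and shrink to between 113 and 153 calls without any other library.

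Called genes differed from the rest in transcript length and base composition. The longest annotated transcript of a gene had a median of 5330 bases among genes called higher, 2725 among those called lower and 3113 among all genes tested, with GC contents of 46.7%, 53.8% and 47.9%. After a correction of each library for GC content and length, 518 genes were higher and 601 lower, so the higher share of calls moved from 58.8% to 46.3%. All 99 core genes were also called after this correction, and the part of length and GC content in the other calls was not tested further.

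The 14 largest rises and 14 largest falls were taken among the called genes that code for protein and average 5 CPM or more. Among the rises, 8 belonged to the core. CA12 (ENSG00000074410, chr15:63321378-63381846), which encodes a cell-surface carbonic anhydrase, had the highest fold change of these (positions of genes are on GRCh38) at a log2 value of 3.46 ± 0.33. The others were SLFN5, the beta-3 integrin gene ITGB3, SPRED3, the endoplasmic reticulum membrane protein gene TMCC3, CNTNAP3C, the phosphatase and actin regulator gene PHACTR2, and ITPR1, which encodes a calcium channel opened by inositol trisphosphate. PHACTR2 (ENSG00000112419, chr6:143536845-143831185) had 3.46, 2.93 and 4.93 CPM in untreated 1 to 3 and 14.9, 14.6 and 16.1 CPM in sorafenib 1 to 3, which is a log2 change of 2.01 ± 0.19 with its SE (adjusted p = 0.00147). ITPR1 (ENSG00000150995, chr3:4493345-4847840) had 3.28, 2.54 and 1.85 and 7.81, 11.3 and 9.95 CPM (1.92 ± 0.25, adjusted p = 0.00512). In both genes the lowest sorafenib library stood above the highest untreated one, by a wider gap for PHACTR2.

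The remaining 6 rises depended on single libraries. HLF, a circadian PAR bZIP transcription factor gene, had 7.73, 1.71 and 4.98 CPM in untreated and 45.5, 39.6 and 35.4 CPM in sorafenib libraries (3.06 ± 0.43, adjusted p = 0.0105), and its call ended only without untreated 3 (adjusted p = 0.0530). The osteoblast factor gene RUNX2 stood at 6.08, 6.18 and 22.6 CPM in sorafenib 1 to 3 against 2.75, 2.37 and 3.07 CPM, so sorafenib 3 alone carried most of its rise. In GRPEL2, a co-chaperone gene of mitochondrial import, it was sorafenib 3 that lagged, with 64.7, 71.1 and 18.4 CPM against 9.55, 5.91 and 7.20 CPM. The calls of RUNX2 (2.08 ± 0.49, adjusted p = 0.0482) and GRPEL2 (2.77 ± 0.62, adjusted p = 0.0482) each held in 1 of the 6 left-out fits. RUNX2 was still called without sorafenib 1 and GRPEL2 without sorafenib 3, and elsewhere the adjusted p reached 0.175 and 0.181. After the correction for GC content and length it was 0.0530 and 0.0511. HOXA3, HDAC9 and NCR3LG1 had log2 fold changes of 2.22 ± 0.42, 2.00 ± 0.38 and 2.04 ± 0.32. HOXA3 and HDAC9 lost their calls without untreated 2, untreated 3, sorafenib 2 or sorafenib 3, and NCR3LG1 without untreated 3 or sorafenib 3, with adjusted p-values up to 0.0969, 0.0971 and 0.0522.

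**Figure D2:**
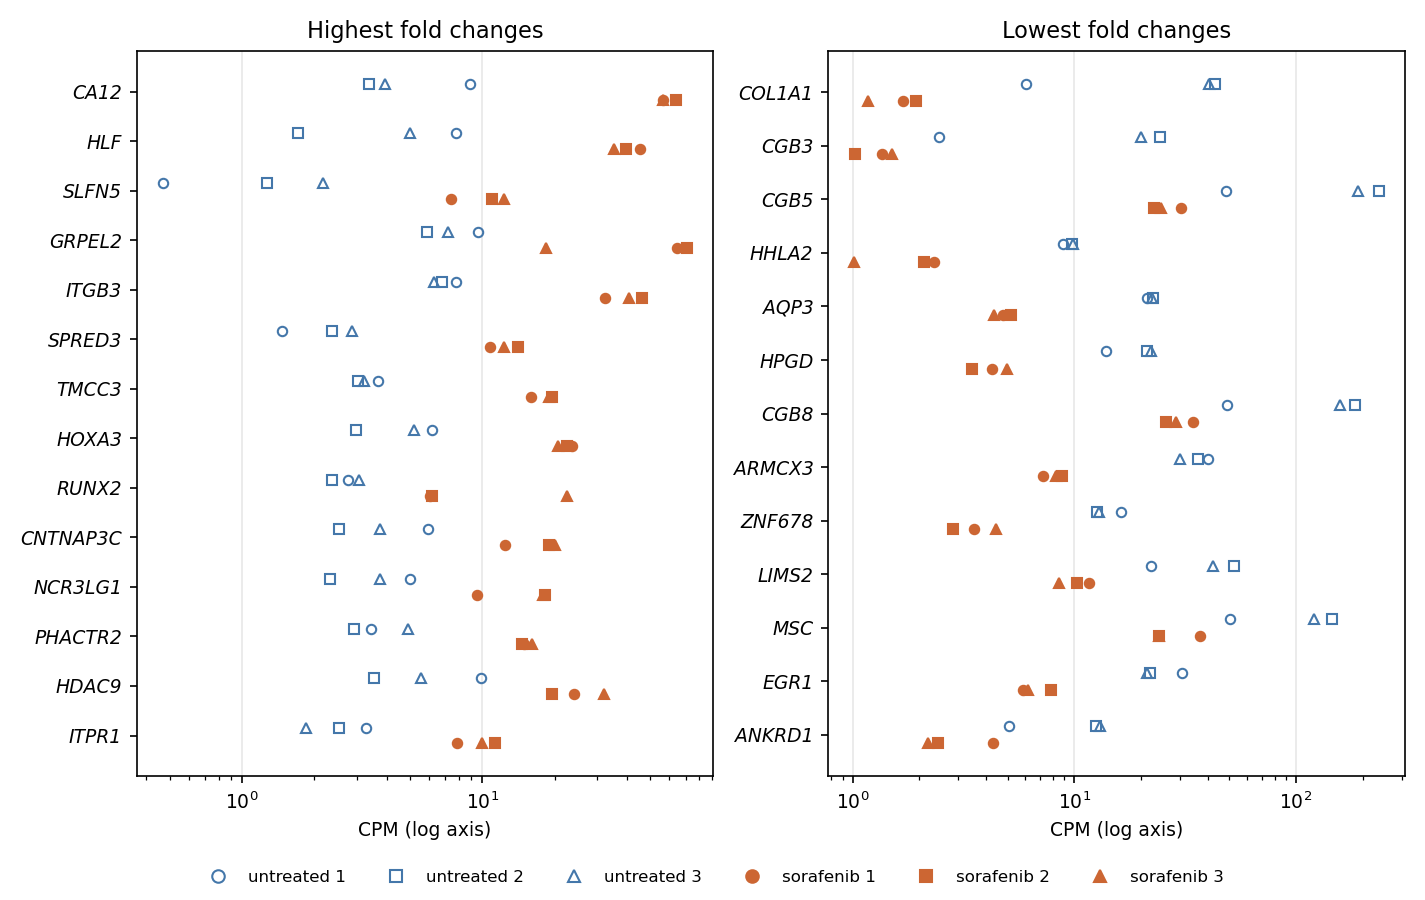
CPM on a log axis in each of the 6 libraries for the 14 highest (left) and 13 of the 14 lowest (right) log2 fold changes among called genes that code for protein and average 5 CPM or more. Open blue symbols are untreated and filled orange symbols sorafenib libraries, with circle, square and triangle for libraries 1, 2 and 3, and in COL1A1, CGB3, CGB5, CGB8, LIMS2, MSC and ANKRD1 untreated 1 lies nearer to the sorafenib libraries than the other untreated ones do.

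Of the falls, 13 are described. AQP3 (ENSG00000165272, chr9:33441156-33447596), a water and glycerol channel gene, had 21.3, 22.5 and 22.4 CPM in untreated and 4.78, 5.16 and 4.33 CPM in sorafenib libraries (-2.21 ± 0.14, adjusted p = 0.000137). HPGD (ENSG00000164120, chr4:174490175-174523154) encodes the enzyme that inactivates prostaglandins and had 13.8, 21.3 and 22.2 and 4.23, 3.46 and 4.98 CPM (-2.18 ± 0.22, adjusted p = 0.00173). In both genes the groups were far apart, and both are among the 99. So are EGR1, the mitochondrial outer membrane protein gene ARMCX3 (-2.13 ± 0.20, adjusted p = 0.00147) and HHLA2, an immune checkpoint ligand gene of the B7 family (-2.38 ± 0.34, adjusted p = 0.00709).

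The lowest fold change of the 14 belonged to COL1A1, the gene of a type I collagen chain (ENSG00000108821, chr17:50184101-50201632). It had 6.03, 42.95 and 40.5 CPM in untreated and 1.68, 1.93 and 1.18 CPM in sorafenib libraries (-4.22 ± 0.71, adjusted p = 0.0235). Untreated 1 stood much closer to the sorafenib libraries than untreated 2 and 3 did. The call ended without untreated 2, untreated 3, sorafenib 2 or sorafenib 3 (adjusted p up to 0.111). COL1A1 is also a marker of fibroblasts, and of 16 fibroblast and endothelial markers 14 had a median under 1 CPM and 6 had no count in the 6 libraries. The summed level of that list was 12.0 to 46.2 CPM in untreated and 4.25 to 4.92 CPM in sorafenib libraries, and only COL1A1 and PDGFRB passed the filter on low counts. Scaled by total counts, as in that sum, COL1A1 stood at 40.6 and PDGFRB at 5.47 CPM in untreated 2. COL1A2, COL3A1, DCN, LUM, FAP and THY1 did not exceed 0.117 CPM in any of the 6 libraries. In bulk RNA, fewer cells of a type and less RNA per cell cannot be told apart, and a loss of fibroblasts was not tested. The other 7 falls were the chorionic gonadotropin beta genes CGB3, CGB5 and CGB8, the zinc finger gene ZNF678, the focal adhesion gene LIMS2, the transcription factor gene MSC and ANKRD1. The CGB genes are near-identical copies, as is CNTNAP3C of other CNTNAP3 genes, so how their reads were shared among copies is uncertain. Each of the 7 lost its call without at least 2 of untreated 2, untreated 3, sorafenib 2 and sorafenib 3. The 3 CGB calls also ended without sorafenib 1, and the highest adjusted p was 0.164, 0.167, 0.173, 0.0911, 0.0697, 0.147 and 0.135 in the order named.

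Feedback genes of RAS-ERK signalling were higher in sorafenib as a group. Of 15 tested members 7 rose and 0 fell, and in 13 all sorafenib values lay above all untreated values, against 15.5% of all genes. The median log2 fold change was 1.21, beside 0.00 over all genes. Taken per library as the median over the list of the log2 distance from the untreated mean, sorafenib 1 to 3 stood at 1.07, 1.43 and 1.01 and the untreated libraries between -0.05 and 0.07. The count did not rest on a single library: 7 to 9 members were called higher in each of the 6 left-out fits, and all 7 are among the 99. Over all alternatives of the processing, listed below, only SPRED3 of the 7 stayed under the threshold (adjusted p up to 0.0323). The adjusted p reached 0.0697, 0.0835, 0.0759, 0.124, 0.130 and 0.181 for SPRY4, DUSP6, ETV4, ETV5, ETV1 and DUSP5.

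SPRED3 (ENSG00000188766, chr19:38388421-38399587) encodes a SPRED protein, which restrains the activation of RAF. It had 1.46, 2.37 and 2.86 CPM in untreated and 10.7, 14.002 and 12.3 CPM in sorafenib libraries (2.46 ± 0.24, adjusted p = 0.00171). SPRY4 (ENSG00000187678, chr5:142310427-142326455), of the Sprouty inhibitors of receptor signalling, had 3.63, 4.14 and 3.34 and 9.71, 11.7 and 9.47 CPM (1.47 ± 0.17, adjusted p = 0.00290). Both separated the groups, SPRED3 with more spread among the untreated libraries. DUSP6 (ENSG00000139318, chr12:89347235-89352501), whose phosphatase removes phosphate from ERK in the cytoplasm, had 9.08, 8.72 and 10.2 and 20.6, 25.2 and 18.9 CPM (1.21 ± 0.15, adjusted p = 0.00434). DUSP5, the nuclear ERK phosphatase gene, had 22.1, 26.7 and 30.8 and 52.7, 51.5 and 51.9 CPM (0.97 ± 0.13, adjusted p = 0.00599). For each phosphatase gene every sorafenib library stood above every untreated one, with the sorafenib values of DUSP5 close together. Among the ETS factors, ETV4 (ENSG00000175832, chr17:43527844-43579620) had 4.51, 3.81 and 3.71 and 14.2, 13.2 and 15.1 CPM (1.82 ± 0.20, adjusted p = 0.00215). ETV5 (ENSG00000244405, chr3:186046314-186110318) had 30.3, 41.6 and 38.1 and 70.98, 75.1 and 82.7 CPM (1.06 ± 0.15, adjusted p = 0.00599). ETV1 had 21.5, 12.9 and 15.4 and 37.1, 44.6 and 46.9 CPM (1.37 ± 0.19, adjusted p = 0.00604). None of the 3 ETV genes overlapped between groups. DUSP5 and ETV1 are named to complete the count of 7, after their values were seen.

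The other 8 members did not pass the threshold. PHLDA1, an ERK-induced gene of a pleckstrin homology-like protein, had 94.6, 189.7 and 70.6 CPM in untreated and 339.8, 390.5 and 377 CPM in sorafenib libraries (1.64 ± 0.46, adjusted p = 0.0759), with untreated 2 well above the other untreated libraries. SPRED1, SPRED2, SPRY1 and SPRY2 had log2 fold changes of 0.49 ± 0.13, 0.41 ± 0.11, 1.25 ± 0.38 and 0.36 ± 0.13, with adjusted p-values of 0.0543, 0.0613, 0.0828 and 0.119. Each of these 4 was also separated between the groups. SPSB1, of a ubiquitin ligase adaptor, stood at 0.26 ± 0.27 (adjusted p = 0.574). DUSP4, another nuclear phosphatase gene, had 0.820, 0.0552 and 0.583 CPM in untreated and 1.57, 1.47 and 0.589 CPM in sorafenib libraries (1.31 ± 0.67, adjusted p = 0.249). IL17RD, a membrane inhibitor gene of the pathway, had 0.703, 0.497 and 0.636 and 0.651, 0.454 and 0.696 CPM (adjusted p = 0.983). DUSP4 and IL17RD are the members whose groups overlapped, and the values of IL17RD covered nearly the same range in both. CCND1, a cyclin gene downstream of the pathway, stood at 0.30 ± 0.11 (adjusted p = 0.137).

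**Figure D3:**
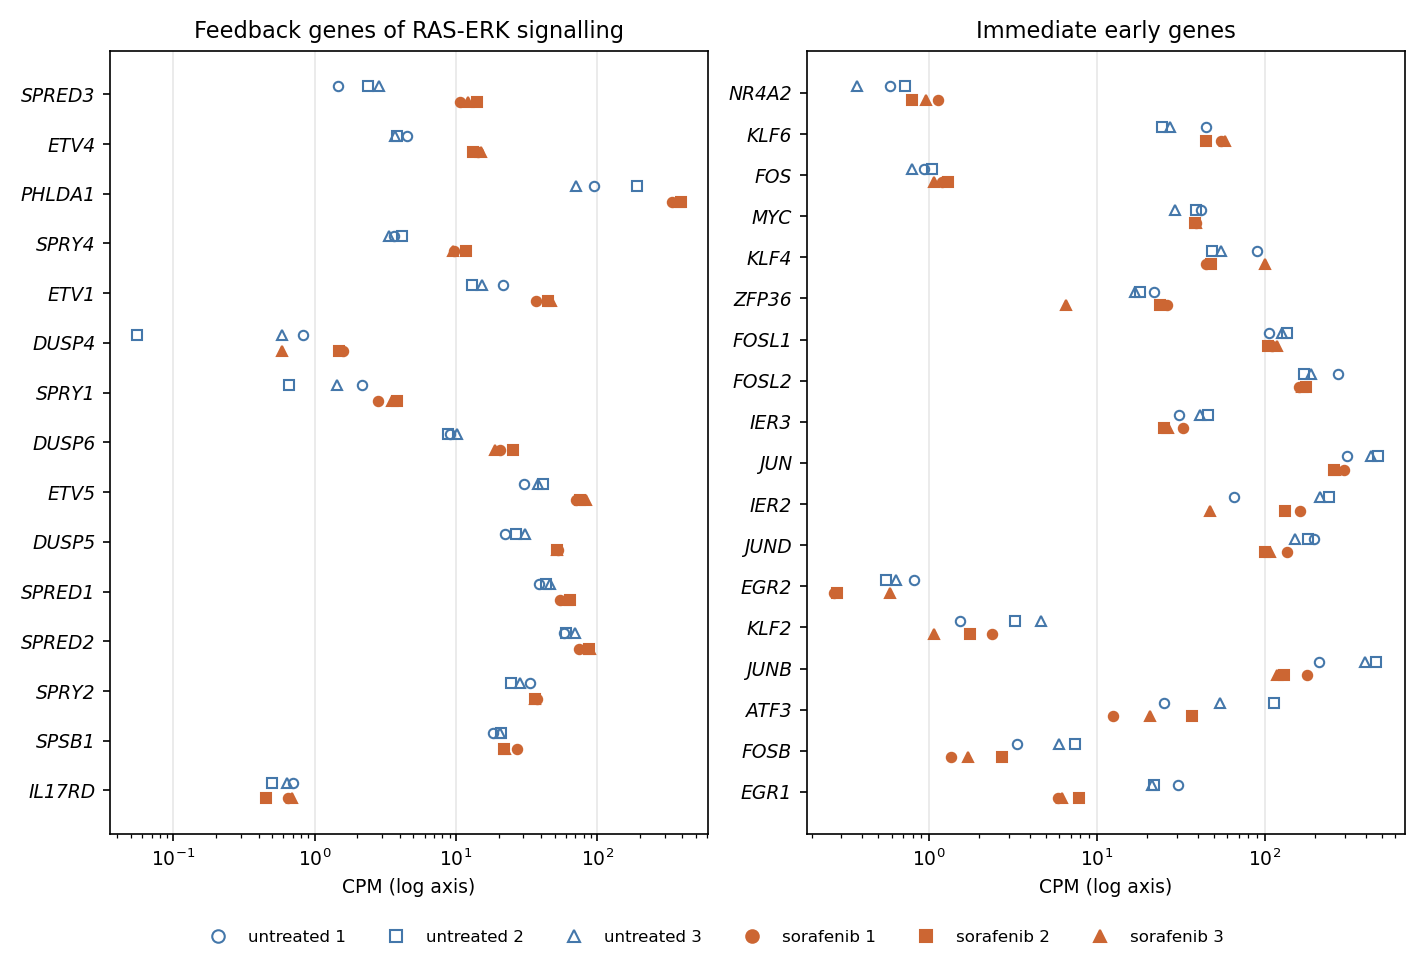
CPM on a log axis in each of the 6 libraries for the 15 tested feedback genes of RAS-ERK signalling (left) and the 18 tested immediate early genes (right), ordered by log2 fold change. Open blue symbols are untreated and filled orange symbols sorafenib libraries, and in 13 of the 15 feedback genes all sorafenib libraries lie to the right of all untreated ones, while EGR1 at the bottom right lies to the left in all 3.

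Immediate early genes did not follow the feedback genes. Of 18 tested, 0 rose and 3 fell, with a median log2 fold change of -0.53. In 5 all sorafenib values lay below all untreated values (14.3% of all genes) and in 3 above (15.5%). EGR1 (ENSG00000120738, chr5:138465479-138469303), a zinc finger transcription factor gene, had 30.7, 22.03 and 21.3 CPM in untreated and 5.86, 7.82 and 6.21 CPM in sorafenib libraries (-1.89 ± 0.20, adjusted p = 0.00191). It is 1 of the 99, with no overlap between groups. JUNB, an AP-1 subunit gene, had 210, 462 and 396 and 179, 130.2 and 118 CPM (-1.32 ± 0.30, adjusted p = 0.0436). FOSB, another AP-1 subunit gene, had 3.34, 7.45 and 5.93 and 1.36, 2.72 and 1.71 CPM (-1.53 ± 0.38, adjusted p = 0.0492). In both, untreated 1 was the lowest untreated library and lay next to the sorafenib values. Their calls ended without untreated 2, untreated 3, sorafenib 2 or sorafenib 3, and that of FOSB also without sorafenib 1 (adjusted p up to 0.171 and 0.168). FOSL1, the AP-1 subunit gene of FRA1, had 106, 136 and 126 and 110.4, 105 and 118 CPM (-0.15 ± 0.22, adjusted p = 0.712), and its groups overlapped.

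The 250 bases before the RefSeq start sites (GRCh38.p14) are shown for SPRED3 and EGR1, which moved in opposite directions. In SPRED3 the capitals mark the CIC octamer TGAATGAA and the AP-1 letters TGANTCA. In EGR1 they mark CArG boxes, the element bound by serum response factor. Matches were sought on both strands, and the CIC and AP-1 letters here do not overlap.
SPRED3, chr19:38389541-38389790, plus strand: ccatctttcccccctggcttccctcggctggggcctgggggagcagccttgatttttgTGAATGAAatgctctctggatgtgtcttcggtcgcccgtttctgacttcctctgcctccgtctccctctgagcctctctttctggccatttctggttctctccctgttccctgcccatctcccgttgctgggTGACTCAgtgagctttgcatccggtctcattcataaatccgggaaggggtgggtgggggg
EGR1, chr5:138465229-138465478, plus strand: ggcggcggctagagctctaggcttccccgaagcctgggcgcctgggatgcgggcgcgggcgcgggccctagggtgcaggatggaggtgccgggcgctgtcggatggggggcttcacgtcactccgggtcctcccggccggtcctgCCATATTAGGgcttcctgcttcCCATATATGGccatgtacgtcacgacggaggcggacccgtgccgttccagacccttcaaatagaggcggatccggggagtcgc
SPRED3 has 1 CIC octamer and 1 AP-1 match in this window and none in the window of its other listed start, chr19:38388447-38388696. EGR1 has 2 CArG boxes. Of 35116 such windows of all genes in the table, 1.40% hold TGAATGAA, 0.832% its variant TGAATGGA, 6.57% TGANTCA and 1.16% a CArG box. Among the 15 feedback genes 10 were matched in the table, and of these SPRED3 held TGAATGAA and ETV1 held TGAATGGA. A match describes the letters only, and windows were not listed for ETV4, ETV5 and DUSP5.

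The kinases themselves showed no call in the fit of all libraries. None of 18 tested genes of the RAS, RAF, MEK and ERK families passed the threshold with edgeR, where 4 had an unadjusted p under 0.05, and none with DESeq2. Without sorafenib 1, 1 of them fell, and without both libraries numbered 1, 3 rose and 1 fell. No kinase gene was called without any other single library. Their median log2 fold change was 0.11.

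Of 15 receptor tyrosine kinase genes 2 rose and 1 fell, with a median log2 fold change of 0.08. PDGFRB, the gene of a PDGF receptor that sorafenib inhibits, had 5.21, 5.80 and 6.89 CPM in untreated and 2.55, 2.44 and 2.68 CPM in sorafenib libraries (-1.22 ± 0.20, adjusted p = 0.0120). EGFR, the epidermal growth factor receptor gene, had 281, 265 and 296 and 356, 513 and 472 CPM (0.67 ± 0.13, adjusted p = 0.0273). MET, the hepatocyte growth factor receptor gene, had 288, 258 and 269.6 and 378, 448 and 469 CPM (0.67 ± 0.12, adjusted p = 0.0174). The groups did not overlap in any of the 3, and for EGFR and MET sorafenib 1 was the lowest of the sorafenib libraries. Of 12 ligand genes 2 rose and 0 fell (median 0.32), namely the EGF receptor ligands EREG (0.78 ± 0.14, adjusted p = 0.0208) and TGFA (0.65 ± 0.13, adjusted p = 0.0250). None of these 5 calls held without sorafenib 2 or without sorafenib 3. The calls of PDGFRB, EGFR, MET and TGFA also ended without untreated 3, and those of EGFR, MET, EREG and TGFA without untreated 2, with adjusted p-values up to 0.0612, 0.111, 0.0851, 0.0913 and 0.105 for PDGFRB, EGFR, MET, EREG and TGFA.

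Of 19 genes of PI3K, AKT and mTOR signalling 2 rose and 0 fell, with a median of 0.25 that moved to -0.03 after the correction for GC content and length. IRS2 (ENSG00000185950, chr13:109752695-109786583), the adaptor of the insulin and IGF1 receptors, had 19.9, 19.8 and 17.5 CPM in untreated and 41.999, 50.6 and 45.8 CPM in sorafenib libraries (1.27 ± 0.14, adjusted p = 0.00191). RICTOR, the gene of a subunit that defines mTOR complex 2, had 29.002, 22.6 and 27.9 and 46.8, 72.2 and 62.8 CPM (1.19 ± 0.17, adjusted p = 0.00643). Both belong to the 99, and in both every sorafenib library exceeded every untreated one.

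Genes that respond to low oxygen rose in part. Hypoxia-inducible factors bind a short core sequence near genes of glucose use, acid handling and mitochondrial turnover. Of 20 tested members 6 rose and 0 fell, where 2.82% of all genes rose and 1.97% fell. The list also holds EPAS1 and HIF1A, genes of such factors themselves. CA9, a further carbonic anhydrase gene of the list, had no count in the 6 libraries. The median log2 fold change was 0.18 beside 0.00 over all genes. In 7 all sorafenib values lay above all untreated values and in 2 below, against 15.5% and 14.3% of all genes. Over the left-out fits 2 to 6 members were called higher. CA12 had 8.85, 3.37 and 3.92 CPM in untreated and 56.2, 64.1 and 56.6 CPM in sorafenib libraries (3.46 ± 0.33, adjusted p = 0.00171). NDRG1, a stress-induced growth regulator gene, had 204, 202 and 182 and 374, 317 and 358 CPM (0.84 ± 0.11, adjusted p = 0.00568). Both are of the 99 and show the groups far apart, with untreated 1 the highest of the untreated libraries. PDK1, the kinase that shuts off pyruvate dehydrogenase, had 21.5, 20.5 and 25.3 and 36.1, 40.5 and 37.7 CPM (0.77 ± 0.12, adjusted p = 0.0131). EPAS1, the gene of the oxygen-regulated factor HIF-2 alpha, had 4.04, 3.48 and 4.13 and 10.6, 7.37 and 12.5 CPM (1.39 ± 0.27, adjusted p = 0.0239). The other 2 calls were the enolase gene ENO2 (0.79 ± 0.18, adjusted p = 0.0395) and the mitophagy receptor gene BNIP3L (0.39 ± 0.09, adjusted p = 0.0436), the latter named after its values were seen.

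All 4 of these smaller calls ended without untreated 2 and without sorafenib 3. Those of EPAS1, ENO2 and BNIP3L also ended without untreated 3, those of PDK1, ENO2 and BNIP3L without sorafenib 2 and that of BNIP3L without untreated 1. The adjusted p reached 0.0647, 0.0984, 0.136 and 0.162 for PDK1, EPAS1, ENO2 and BNIP3L, and after the correction for GC content and length it was 0.0961 for PDK1 and 0.0774 for BNIP3L. HIF1A, the gene of the other oxygen-regulated subunit, stood at 0.77 ± 0.26 (adjusted p = 0.102). VEGFA, a classical target, was at 0.01 ± 0.15 (adjusted p = 0.982). Of 21 glycolysis genes 2 rose and 1 fell, with a median of -0.19. The hexokinase gene HK2 had 20.3, 24.95 and 24.2 CPM in untreated and 41.1, 45.4 and 47.7 CPM in sorafenib libraries (0.95 ± 0.12, adjusted p = 0.00472) and is 1 of the 99. ENO2 was the other rise, and the phosphoglycerate mutase gene PGAM1 the fall, at -0.54 ± 0.10 (adjusted p = 0.0238), a call that ended without untreated 2, untreated 3, sorafenib 2 or sorafenib 3 (up to 0.104).

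The promoter of CA12 is shown because this gene had the highest fold change of those that average 5 CPM or more, with capitals for the hypoxia core.
CA12, chr15:63381847-63382096, minus strand: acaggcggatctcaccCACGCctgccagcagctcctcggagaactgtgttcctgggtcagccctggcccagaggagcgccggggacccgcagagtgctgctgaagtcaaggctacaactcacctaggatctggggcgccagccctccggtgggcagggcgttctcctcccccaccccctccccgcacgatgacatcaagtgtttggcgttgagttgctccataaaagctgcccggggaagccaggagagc
It holds 1 match to the core variant GCGTG, on the opposite strand and so reading CACGC, and none to ACGTG. The variant occurs in 32.2% and ACGTG in 18.5% of the 35116 windows, so a match is common.

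Integrins, the paired receptors that attach cells to the matrix, were mostly higher in sorafenib. Of 12 tested genes 7 rose and 1 fell, with a median log2 fold change of 0.57. In 7 all sorafenib values lay above all untreated values and in 2 below, against 15.5% and 14.3% of all genes. Per library, the list median stood at 0.49, 0.82 and 0.62 in sorafenib 1 to 3 and between -0.05 and 0.12 in untreated libraries. Between 4 and 7 members were called higher in the left-out fits. ITGB3 had 7.79, 6.79 and 6.30 CPM in untreated and 32.4, 46.1 and 40.9 CPM in sorafenib libraries (2.51 ± 0.17, adjusted p = 0.000191). ITGA3 (ENSG00000005884, chr17:50055968-50090481), whose product binds laminin together with beta-1, had 969, 841 and 831 and 1951, 1968 and 1892 CPM (1.14 ± 0.11, adjusted p = 0.00171). ITGB4 (ENSG00000132470, chr17:75721328-75757818), the hemidesmosome integrin gene, had 16.99, 13.1 and 11.7 and 45.3, 42.7 and 41.8 CPM (1.63 ± 0.15, adjusted p = 0.00135). ITGB8, of a receptor that activates TGF-beta, had 5.86, 5.47 and 5.14 and 15.4, 23.7 and 16.96 CPM (1.77 ± 0.21, adjusted p = 0.00290). These 4 are of the 99, and none overlapped between groups. ITGB5, ITGA6 and ITGB1 were the further rises (0.61 ± 0.11, 0.95 ± 0.18 and 0.53 ± 0.12) and ITGB6 the fall (-0.72 ± 0.15), with adjusted p-values of 0.0173, 0.0242, 0.0410 and 0.0328. They were named after their values were seen, and each call ended without untreated 2, untreated 3, sorafenib 2 or sorafenib 3, that of ITGB1 also without untreated 1 (up to 0.0756, 0.101, 0.159 and 0.128).

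Matrix and contractile genes moved less evenly. Among 15 laminin and basement membrane genes 2 rose and 0 fell (median 0.27), with the laminin alpha-5 gene LAMA5 at 0.95 ± 0.19 (adjusted p = 0.0273). Among 13 interstitial collagen and matrix protein genes 1 rose and 3 fell (median -0.33). Beside COL1A1 the falls were FBLN1, the fibulin-1 gene, with 320.5, 446 and 396 CPM in untreated and 254, 234 and 239 CPM in sorafenib libraries (-0.68 ± 0.13, adjusted p = 0.0239), and the collagen gene COL5A1, named after its values were seen, with 0.293, 1.27 and 0.742 CPM and no count in the sorafenib libraries (adjusted p = 0.0272). FN1, the fibronectin gene, was the rise, with 12.9, 8.94 and 9.01 and 14.8, 17.8 and 17.7 CPM (0.70 ± 0.15, adjusted p = 0.0354, and 0.0508 after the correction for GC content and length). The groups were apart in these genes. Of 16 TGF-beta and BMP target genes 1 rose and 3 fell (median -0.21). BAMBI (ENSG00000095739, chr10:28677510-28682932), the gene of a decoy receptor, had 20.8, 32.8 and 28.4 and 10.9, 9.07 and 9.79 CPM (-1.47 ± 0.18, adjusted p = 0.00389) and is of the 99. TGFBI, the gene of a secreted matrix protein induced by TGF-beta, had 819.8, 958 and 1066 and 479, 461 and 526 CPM (-0.96 ± 0.15, adjusted p = 0.0123). The rise was SMAD3 (0.54 ± 0.12, adjusted p = 0.0397). PMEPA1, a feedback inhibitor gene, had 148, 403 and 357 and 117, 119 and 99.2 CPM (-1.43 ± 0.32, adjusted p = 0.0431), with untreated 1 next to the sorafenib values.

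In the list of 16 smooth muscle and contractile genes 1 rose and 2 fell (median -0.08). TAGLN, the transgelin gene, had 2.17, 7.56 and 7.68 CPM in untreated and 1.03, 0.454 and 0.696 CPM in sorafenib libraries (-2.98 ± 0.48, adjusted p = 0.0138). MYL9, a myosin light chain gene, also fell (-1.52 ± 0.26, adjusted p = 0.0153), and MYLK, the kinase gene of myosin light chains, was the rise (0.93 ± 0.14, adjusted p = 0.00999). Apart from that of BAMBI, these calls depended on libraries. Those of LAMA5, FBLN1, COL5A1, FN1, SMAD3, PMEPA1 and TAGLN ended without untreated 2, untreated 3, sorafenib 2 or sorafenib 3, and that of PMEPA1 also without sorafenib 1. TGFBI was lost without untreated 3, sorafenib 2 or sorafenib 3, MYL9 without untreated 2 or sorafenib 2 and MYLK without untreated 3 or sorafenib 3. The highest adjusted p was 0.108 for LAMA5, 0.103 for FBLN1, 0.0851 for COL5A1, 0.0639 for TGFBI, 0.135 for FN1, 0.157 for SMAD3, 0.159 for PMEPA1, 0.0785 for TAGLN, 0.0749 for MYL9 and 0.0522 for MYLK.

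NT5E (ENSG00000135318, chr6:85449584-85495791), which encodes the cell-surface enzyme CD73 that makes adenosine from AMP, had 21.7, 22.97 and 27.3 CPM in untreated and 78.7, 79.4 and 81.8 CPM in sorafenib libraries (1.74 ± 0.12, adjusted p = 0.000191). It is of the 99 and was listed among the 17 tested genes of epithelial-mesenchymal transition, of which 2 rose and 2 fell. Of 24 YAP and TEAD targets 5 rose and 1 fell (median 0.07), and over the left-out fits 1 to 8 rose. The fall was ANKRD1, with 5.10, 12.5 and 13.03 CPM in untreated and 4.29, 2.44 and 2.19 CPM in sorafenib libraries (-1.78 ± 0.37, adjusted p = 0.0316), where untreated 1 lay next to sorafenib 1. This call ended without untreated 2, untreated 3, sorafenib 2 or sorafenib 3 (up to 0.135). Of 17 tight junction genes 3 rose and 0 fell (median 0.35). CLDN16 had 446, 433 and 476 and 672, 735 and 762 CPM (0.68 ± 0.10, adjusted p = 0.00776), and its neighbour CLDN1 423, 454 and 498 and 658, 656 and 694 CPM (0.55 ± 0.10, adjusted p = 0.0189). Both claudin genes were separated between groups. The CLDN16 call ended without sorafenib 3, and that of CLDN1 without untreated 2, sorafenib 2 or sorafenib 3 (adjusted p up to 0.0507 and 0.0903).

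Genes of DNA replication fell in part. E2F factors switch these genes on as cells enter S phase. Of 46 tested members 0 rose and 16 fell, with a median log2 fold change of -0.40, and in 32 all sorafenib values lay below all untreated values, against 14.3% of all genes. Per library the list stood at -0.41, -0.51 and -0.37 in sorafenib 1 to 3 and between -0.13 and 0.12 in untreated libraries. The number of calls depended on libraries, with 22 without untreated 1, 19 without sorafenib 1, and 5, 2, 2 and 1 without untreated 2, untreated 3, sorafenib 2 and sorafenib 3. TK1, the thymidine kinase gene of S phase, had 180.5, 218 and 221 CPM in untreated and 124, 101 and 91.7 CPM in sorafenib libraries (-0.97 ± 0.13, adjusted p = 0.00604). CDC6, a licensing factor gene, had 57.1, 75.4 and 85.7 and 29.5, 38.9 and 31.7 CPM (-1.12 ± 0.17, adjusted p = 0.0107). TK1 is of the 99, the call of CDC6 ended without sorafenib 3 (adjusted p = 0.0622), and neither gene overlapped between groups. The helicase subunit gene MCM5 (-0.78 ± 0.13, adjusted p = 0.0123) and the origin recognition gene ORC1 (-0.67 ± 0.11, adjusted p = 0.0123) were lost without untreated 3, sorafenib 2 or sorafenib 3, and MCM5 also without untreated 2 (up to 0.0691 and 0.0723).

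Of 50 tested mitotic genes 0 rose and 7 fell, with a median of -0.27. In 26 all sorafenib values lay below all untreated values and in 1 above, against 14.3% and 15.5% of all genes. After the correction for GC content and length 17 fell, and the left-out fits gave 12 without untreated 1, 7 without sorafenib 1 and 2 without any other library. MYBL2 (ENSG00000101057, chr20:43667019-43716495), a transcription factor gene of dividing cells, had 338, 429 and 438 CPM in untreated and 205, 178 and 177 CPM in sorafenib libraries (-1.10 ± 0.14, adjusted p = 0.00475). LMNB1 (ENSG00000113368, chr5:126776623-126837020), the lamin B1 gene whose level falls in senescent cells, had 127, 145 and 139 and 75.9, 80.05 and 90.9 CPM (-0.74 ± 0.11, adjusted p = 0.00748). Both are among the 99, with the groups well apart. The securin gene PTTG1 (-0.64 ± 0.13, adjusted p = 0.0279) and the anaphase activator gene CDC20 (-0.72 ± 0.15, adjusted p = 0.0281) were called only with untreated 2, untreated 3, sorafenib 2 and sorafenib 3 all present (up to 0.122 and 0.120 otherwise). MKI67, the Ki-67 gene, had 202, 102 and 206 and 186, 85.998 and 95.8 CPM (-0.47 ± 0.47, adjusted p = 0.565), uneven within both groups.

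Of 19 CDK inhibitor and growth arrest genes none passed the threshold with edgeR in the fit of all libraries (10 at an unadjusted p under 0.05). This depended on libraries, as 3 rose and 1 fell without untreated 1 and 1 rose without sorafenib 1. No member was called without any other single library, and 1 rose with the 6 libraries alone. In 8 all sorafenib values lay above all untreated values and in 1 below, against 15.5% and 14.3% of all genes. DESeq2 called 4 of them higher and 1 lower, beside 992 and 804 of all 16159 genes tested. CDKN1A, the gene of p21, had 63.9, 78.3 and 60.8 CPM in untreated and 127, 118 and 106 CPM in sorafenib libraries (0.79 ± 0.26, adjusted p = 0.102). CDKN2A, the gene of p16, had 1.23, 1.05 and 1.38 and 1.90, 1.76 and 2.94 CPM (0.85 ± 0.28, adjusted p = 0.102). GLB1, the gene of the lysosomal galactosidase stained in senescent cells, had 60.6, 85.9 and 80.9 and 94.9, 90.99 and 69.2 CPM (0.17 ± 0.16, adjusted p = 0.550). The groups were apart for CDKN1A and CDKN2A and overlapped for GLB1. Among 30 p53 targets 4 rose and 1 fell (median 0.24), with the rises in MDM2 (0.86 ± 0.19), EDA2R (1.05 ± 0.18), RRM2B (0.77 ± 0.14) and the translesion polymerase gene POLH (0.48 ± 0.11), at adjusted p-values of 0.0343, 0.0148, 0.0222 and 0.0405. The fall was TP53I3, named after its values were seen (-0.96 ± 0.23, adjusted p = 0.0431). All 5 were lost without untreated 3, sorafenib 2 or sorafenib 3, and all but EDA2R without untreated 2, where the adjusted p reached 0.133 for MDM2, 0.0707 for EDA2R, 0.0930 for RRM2B, 0.154 for POLH and 0.167 for TP53I3. Of 25 tested genes of senescence-associated secreted factors 2 rose and 0 fell (median -0.11). The rises were EREG and the stanniocalcin gene STC1, with 0.762, 0.718 and 0.371 and 2.17, 2.15 and 2.09 CPM (1.79 ± 0.31, adjusted p = 0.0174). No member was called higher without untreated 2, sorafenib 2 or sorafenib 3, and STC1 was also lost without untreated 3 (up to 0.0715), while 6 members were called higher after the correction for GC content and length.

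**Figure D4:**
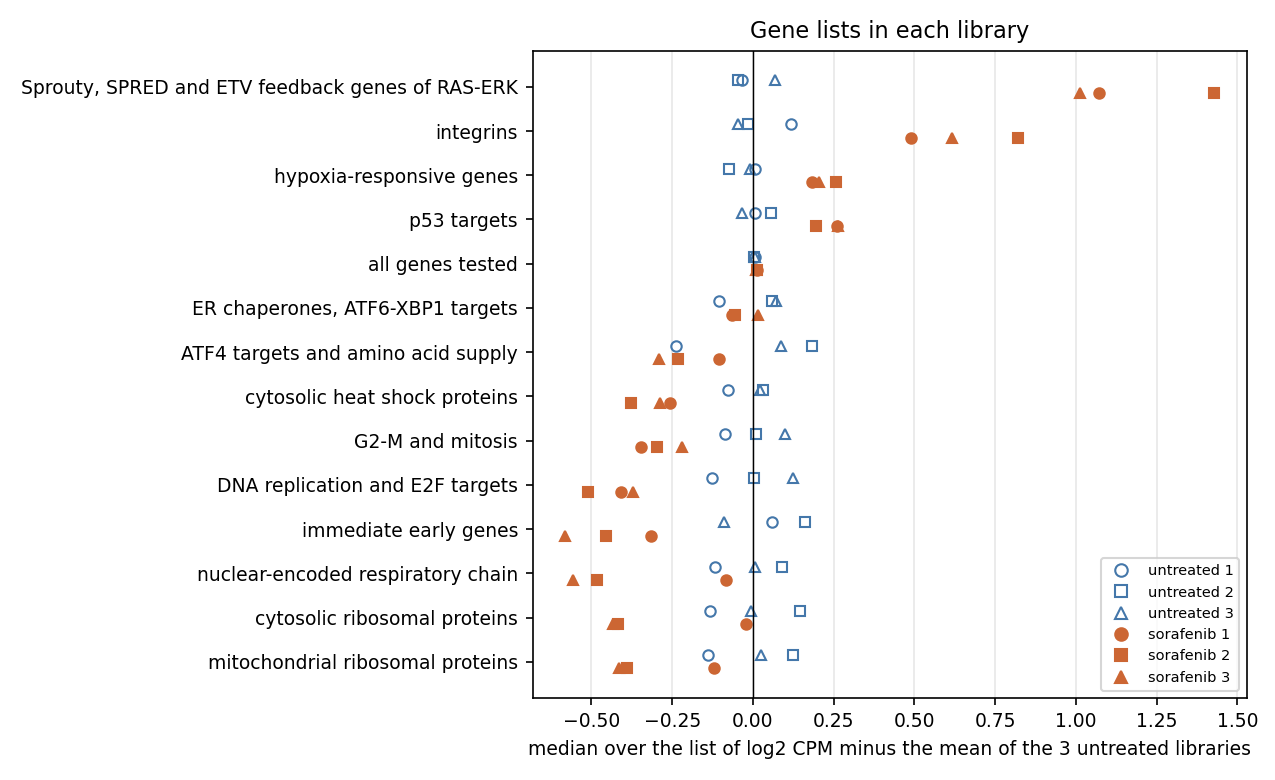
For 13 gene lists and all genes tested (y axis), the median over the list of each gene's log2 CPM minus its mean in the 3 untreated libraries, plotted for every library (x axis, log2). Open blue symbols are untreated and filled orange symbols sorafenib libraries, and the feedback genes of RAS-ERK reach 1.01 to 1.43 in sorafenib, the replication genes -0.51 to -0.37, while sorafenib 1 lies with the untreated libraries for ribosomal proteins and the respiratory chain.

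Of 42 endoplasmic reticulum chaperone and ATF6-XBP1 target genes 1 rose and 0 fell with edgeR, where 2.82% of all genes rose and 1.97% fell. The median was -0.06, 14 members had an unadjusted p under 0.05, and DESeq2 called 2 higher and 2 lower. The rise was SEL1L, a gene of endoplasmic reticulum-associated degradation (0.88 ± 0.14, adjusted p = 0.0134), lost without untreated 2, untreated 3, sorafenib 2 or sorafenib 3 (up to 0.0695). HSPA5, the gene of the chaperone BiP, had 920.1, 1339 and 1314 CPM in untreated and 1132, 1120.3 and 1203 CPM in sorafenib libraries (-0.05 ± 0.14, adjusted p = 0.864). DDIT3, the gene of CHOP, had 57.2, 78.6 and 70.9 and 65.4, 60.1 and 55.9 CPM (-0.19 ± 0.23, adjusted p = 0.640). The groups overlapped in both. XBP1 was at -0.25 ± 0.16 (adjusted p = 0.347). Of 39 ATF4 targets and amino acid supply genes 0 rose and 2 fell (median -0.22). These were CHAC1, whose enzyme degrades glutathione (-1.08 ± 0.23, adjusted p = 0.0341), and ATF5 (-0.76 ± 0.18, adjusted p = 0.0429), again lost without untreated 2, untreated 3, sorafenib 2 or sorafenib 3 (up to 0.140 and 0.170). After the correction for GC content and length ATF5 was at an adjusted p of 0.0573, and ATF4 itself was at -0.40 ± 0.13 (adjusted p = 0.0974).

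Of 22 tested cytosolic heat shock protein genes 0 rose and 5 fell (median -0.30). In 11 all sorafenib values lay below all untreated values, against 14.3% of all genes. HSP90AA1, of a major cytosolic chaperone, had 916, 901 and 1046 CPM in untreated and 647, 602 and 637 CPM in sorafenib libraries (-0.60 ± 0.11, adjusted p = 0.0182). HSPB1, of a small heat shock protein, had 858, 1267 and 1054 and 568, 411 and 422 CPM (-1.18 ± 0.22, adjusted p = 0.0204). HSPB8 and the alpha-B crystallin gene CRYAB had log2 fold changes of -0.59 ± 0.11 and -1.25 ± 0.24 (adjusted p = 0.0238 and 0.0250). In these 4 genes no sorafenib library reached the lowest untreated one. Even so, 8 members were called without untreated 1 or without sorafenib 1 and 0 without any other library, where the adjusted p of the 4 rose up to 0.0885, 0.0940, 0.109 and 0.0939.

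The levels of ribosomal and respiratory genes split the sorafenib libraries. For 72 cytosolic ribosomal protein genes the list median stood at -0.02 in sorafenib 1 and at -0.42 and -0.43 in sorafenib 2 and 3, with -0.13 to 0.14 in the untreated libraries. For 45 nuclear-encoded respiratory chain genes it was -0.08, -0.48 and -0.56 in sorafenib 1 to 3 and -0.12 to 0.09 in untreated libraries. No gene of either list was called with edgeR, where 18 and 16 had an unadjusted p under 0.05. DESeq2 called 3 and 7 of them lower, and without sorafenib 1 edgeR called 15 and 10 lower. The 13 mitochondrially encoded mRNAs also had no call with edgeR (5 at an unadjusted p under 0.05, and DESeq2 called 2 higher and 1 lower), with a median log2 fold change of 0.21.

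Drug transport and metabolism genes were next. Of 11 ABC efflux transporter genes 4 rose and 0 fell (median 0.39). ABCA3 (ENSG00000167972, chr16:2275881-2340746), the gene of a lipid and drug transporter of intracellular membranes, had 33.2, 33.3 and 32.6 CPM in untreated and 65.7, 69.6 and 66.9 CPM in sorafenib libraries (1.03 ± 0.10, adjusted p = 0.00147) and is of the 99. The untreated values agreed within 1 CPM. ABCC3, ABCC1 and ABCA2 had log2 fold changes of 0.87 ± 0.14, 0.96 ± 0.23 and 0.91 ± 0.21 (adjusted p = 0.0109, 0.0465 and 0.0406). All 3 were lost without untreated 2, untreated 3 or sorafenib 2, and ABCC1 and ABCA2 without sorafenib 3 (up to 0.0527, 0.172 and 0.153). ABCB1, the gene of P-glycoprotein, was at -0.06 ± 0.21 (adjusted p = 0.893). Of 9 genes of sorafenib uptake and metabolism 1 fell, UGT1A9, whose enzyme glucuronidates sorafenib. It had 97.9, 69.3 and 67.01 and 48.7, 34.5 and 29.5 CPM (-1.05 ± 0.23, adjusted p = 0.0379), with untreated 1 the highest library, and was called in only 1 of the 6 left-out fits, that without sorafenib 1 (up to 0.153). UGT1A9 shares exons with other genes of its cluster, so the source of its counts is uncertain. Among 33 genes of NRF2, glutathione and ferroptosis defence 2 rose, ABCC3 and ABCC1 of the efflux list, and 2 fell, the aldo-keto reductase genes AKR1C3 (-0.53 ± 0.12, adjusted p = 0.0426) and AKR1C2 (-0.68 ± 0.16, adjusted p = 0.0457). These share much sequence, so their reads may be split, and AKR1C2 was called in none of the 6 left-out fits (up to 0.167). AKR1C3 was lost without untreated 1, untreated 2, sorafenib 2 or sorafenib 3 (up to 0.1596). Without untreated 2, untreated 3, sorafenib 2 or sorafenib 3 at most 1 member of the list was called. SLC7A11, of the cystine importer, and GPX4, of the lipid peroxidase, were at 0.26 ± 0.15 and -0.40 ± 0.14 (adjusted p = 0.323 and 0.113).

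Of 28 tested genes of inositol phosphates, a list that holds kinases, phosphatases and the inositol trisphosphate receptors, 2 rose and 1 fell, with a median of 0.12. The rises were the receptor genes ITPR1 and ITPR3, and no kinase gene was called. ITPR3 had 375, 327 and 367 CPM in untreated and 493, 639.7 and 598 CPM in sorafenib libraries (0.69 ± 0.12, adjusted p = 0.0164). The fall was INPP4B, a phosphatase gene of phosphoinositides, with 7.91, 21.7 and 21.03 and 3.42, 6.58 and 5.24 CPM (-1.73 ± 0.37, adjusted p = 0.0354). Untreated 1 was close to the sorafenib values for INPP4B. The calls of ITPR3 and INPP4B ended without untreated 2, untreated 3, sorafenib 2 or sorafenib 3, and that of INPP4B also without sorafenib 1 (up to 0.0785 and 0.130). The genes that make or remove inositol hexaphosphate were not called, with IPPK, the last kinase of its synthesis, at -0.24 ± 0.14, IPMK at 0.32 ± 0.16 and the phosphatase gene MINPP1 at 0.14 ± 0.12 (adjusted p = 0.322, 0.246 and 0.523).

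Of 8 prostaglandin genes 0 rose and 3 fell (median -0.21). Beside HPGD these were the synthase genes PTGES (-2.87 ± 0.46, adjusted p = 0.0123) and PTGES3 (-0.80 ± 0.19, adjusted p = 0.0457). PTGES had 1.64, 3.31 and 3.55 CPM in untreated and 0.326, 0.227 and 0.589 CPM in sorafenib libraries, and its call ended without untreated 3 or sorafenib 2 (up to 0.0612). PTGES3 was lost without untreated 2, untreated 3, sorafenib 1 or sorafenib 2 (up to 0.172). Of 32 interferon-stimulated genes 1 rose and 2 fell (median 0.03). These were IFI16, a DNA sensor gene (0.54 ± 0.12, adjusted p = 0.0413), and in the other direction the transcription factor gene IRF1 (-0.53 ± 0.11, adjusted p = 0.0277) and ISG15, of a ubiquitin-like protein (-1.05 ± 0.25, adjusted p = 0.0426). No member was called without untreated 2, untreated 3, sorafenib 2 or sorafenib 3 (up to 0.1504, 0.121 and 0.167). Among 14 class I antigen presentation genes the single call was a fall of B2M (ENSG00000166710, chr15:44711487-44718877), the light chain of class I molecules, with 162, 182 and 173 and 105, 107 and 109 CPM (-0.69 ± 0.09, adjusted p = 0.00598). B2M is of the 99, and its sorafenib values lay close together, below all untreated ones.

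Whether these changes differ from those of the oxaliplatin libraries was tested directly between the drug groups, which called 1657 genes, or 10.3% of those tested. Without sorafenib 1, 2 or 3 this count was 825, 956 or 787. Both drugs were set against the same untreated libraries, so their log2 fold changes are given side by side only. Genes were taken for display only among protein-coding genes also called in sorafenib against untreated. They had to average at least 5 CPM over the untreated and sorafenib libraries. Among these the 5 smallest adjusted p-values between the drugs belonged to FN1, EGR1, AQP3, TMCC3 and ETV4. FN1 had 211, 212 and 204 CPM in oxaliplatin 1 to 3 (adjusted p = 1.12e-05 for the difference between drugs). EGR1 had 81.1, 72.1 and 105 CPM in oxaliplatin, above the untreated libraries, where sorafenib lay below them (adjusted p = 2.33e-05). ETV4 had 0.687, 1.25 and 1.09 CPM in oxaliplatin, below the untreated libraries, where sorafenib lay above them (adjusted p = 3.15e-05). For these genes no oxaliplatin value overlapped the sorafenib ones. AQP3 and TMCC3 had 26.5, 23.8 and 21.98 and 2.43, 2.22 and 2.06 CPM in oxaliplatin (adjusted p = 2.33e-05 and 2.33e-05).

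Of the 15 feedback genes 10 differed between the drugs. The list median over untreated was -0.06 in oxaliplatin beside 1.21 in sorafenib. For integrins it was 0.60 in oxaliplatin beside 0.57, and 6 of 12 genes differed between the drugs. For DNA replication genes it was -0.66 beside -0.40, and 7 of 46 differed. SPRY4, DUSP6, DUSP5, ETV5 and ETV1 had log2 fold changes of -0.08, -0.06, -0.97, -0.50 and -0.04 in oxaliplatin, with adjusted p-values of 0.000855, 0.00118, 8.24e-05, 0.000352 and 0.00231 for the difference. SPRED3 stood at 1.64 in oxaliplatin (adjusted p = 0.0435). CA12, NDRG1, HK2 and IRS2 were at -0.43, -0.03, -0.04 and -0.04 and differed between the drugs (adjusted p = 0.000289, 0.00202, 0.00133 and 0.000605). In contrast, PHACTR2, ITPR1, BAMBI, MYBL2 and LMNB1 were not called between the drugs, with log2 fold changes in oxaliplatin of 2.33, 1.98, -1.51, -1.33 and -0.74 and adjusted p-values of 0.266, 0.901, 0.886, 0.340 and 0.989. The log2 differences between sorafenib and oxaliplatin were -0.32 ± 0.18, -0.06 ± 0.23, 0.05 ± 0.18, 0.22 ± 0.14 and 0.00 ± 0.11 (SE) in the same order, and a p above the threshold does not show that the drugs act alike.

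Some genes switched between libraries of a group. The 5 protein-coding genes with the widest ratio of the highest to the lowest library were taken within each group, and CLDN4 in the untreated group stood at 164, 4.09 and 2.54 CPM against 185, 154 and 152 CPM in sorafenib. BLOC1S5-TXNDC5, a readthrough of neighbouring genes, had 277, 0 and 0 CPM in untreated and 246, 0 and 272 CPM in sorafenib libraries. TXNDC5, a disulfide isomerase gene whose exons it shares, had 88.5, 367 and 391 and 65.01, 337 and 65.7 CPM. Their sum was 365 to 391 CPM in untreated and 311 to 338 CPM in sorafenib libraries, so it varied less within each group than either gene did, and the sums of the groups did not overlap. SENP3-EIF4A1, ISY1-RAB43 and PPAN-P2RY11 are readthrough genes as well. None of these genes was called. Of the 775 called genes 103 overlap exons of another gene on the same strand. Of all 16159 genes tested 2825 do so, which is a larger share.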

How the data were processed

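Messenger RNA of cells labelled HCT-15 was sequenced on an Illumina NovaSeq, per the labels' protocols. The authors deposited raw read counts for 60683 genes per library, made with featureCounts against GRCh38 per the submitters' processing notes, which also name DESeq2. Which aligner, gene annotation and strand setting were used, and how reads with several alignments were handled, is not given in the sources used here, so reads of overlapping or near-identical genes cannot be assigned with certainty.

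Counts were analysed in R 4.3.3. The filter of edgeR 4.0.16 (filterByExpr) left 16159 genes, TMM factors lay between 0.944 and 1.05, and a robust quasi-likelihood model, with a coefficient for each group, was fitted to all 9 libraries, so that the 3 groups share 1 estimate of the spread (biological coefficient of variation 0.224). Sorafenib was tested against untreated and against oxaliplatin, 2-sidedly, with p-values adjusted over all genes tested and called under 0.05. The SE of a log2 fold change is its size over the square root of F. Levels are TMM-scaled CPM, which are not corrected for gene length, so levels of different genes are not compared. Gene positions are GENCODE v29 coordinates on GRCh38.

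Genes were named by rule: the 14 highest and 14 lowest fold changes among called genes that code for protein and average 5 CPM or more, up to 4 called members of each list with the smallest adjusted p and a mean of at least 1 CPM, a fixed set of pathway genes, the 5 most uneven genes of each group with a mean of at least 10 CPM, and the 5 smallest adjusted p-values against oxaliplatin. The text gives those that show each group, and some are not reported here. The comparison, the 47 gene lists and the fixed genes were chosen with earlier results of these data known. Lists are described by counts and medians and not tested.

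Within groups, libraries differed by more than sampling noise (chi-square per degree of freedom 16.9 to 36.3), so each counted as 1 sample. Same-numbered untreated and sorafenib libraries did not deviate together (correlations -0.0971, -0.111 and 0.0162), so numbers were not taken as pairs. Alternatives were DESeq2 1.42.0, RLE factors, library size only, no filter, a mean of 1 CPM, the 6 libraries alone, the replicate number as a block, a test against 1.5-fold, a loess correction (span 0.5) for GC content and transcript length, and each library left out. In simulated counts with 50 genes changed at each size, 0, 28, 40 and 48 were called at 1.5, 2, 3 and 4-fold. Over the 15883 genes tested there 6 of 122 calls were false. The changed genes averaged above 1 CPM, and each gene was drawn separately, without shifts shared by the genes of a library. The numbers of missed and false calls therefore need not hold for the real libraries.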

Additional observations from a re-analysis of the deposited data

How the results depend on the processing

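The number of calls in sorafenib against untreated moved with the setting. DESeq2 called 1796 genes (992 higher, 804 lower, 516 at least 2-fold) and the correction for GC content and length 1119, with 601 lower. The 6 libraries alone gave 311 calls (187 higher, 124 lower, 178 at least 2-fold) and the test against a 1.5-fold change 66 (41 and 25, all 66 at least 2-fold). RLE factors, library size only, no filter, a mean of 1 CPM and, added after the data were seen, the omission of genes with same-strand overlap gave 755 to 873. Leaving out 1 library gave 113 to 1745 calls, with 76 to 1068 higher, 37 to 706 lower and 90 to 630 at least 2-fold. Leaving out both libraries of a number gave 39 to 2934 calls, with 29 to 1619 higher, 10 to 1315 lower and 39 to 918 at least 2-fold. Both the highest counts come from fits without a library numbered 1. The cause of these differences was not tested. With the replicate number as a block 184 genes were called (120 higher, 64 lower, 138 at least 2-fold), and the numbers are not shown to pair the libraries. Between sorafenib and oxaliplatin, the block gave 809 calls, the test against 1.5-fold 217, the fits with 1 library left out 787 to 1949, and those with a number left out 494 to 1292. Of the 113 called genes in the text, all kept their direction under every alternative that gave a value, but 681 of 2133 pairs of gene and alternative lost the call. Without both libraries numbered 2 or 3, 96 and 97 of the 113 were lost, without 1 library 8 to 68, with the replicate block 55, with the 6 libraries alone 40, against 1.5-fold 86, with no filter 12, and after the GC and length correction 6. Among the genes not called, signs turned for FOSL1 and SLC7A11 after the GC and length correction (0.0469 and -0.0710), for GLB1 with both libraries of a number left out (-0.0662 to 0.342) and, with 1 library or both of a number left out, for HSPA5 (-0.205 to 0.0632) and ABCB1 (-0.255 to 0.346). VEGFA turned with DESeq2 (-0.0001117), RLE factors (-6.162e-05), the GC and length correction (-0.282) and libraries left out (-0.1495 to 0.110). Depth limits low genes, as 3 counts are 0.152 to 0.175 CPM. The simulation called no gene changed 1.5-fold, but its changed genes averaged above 1 CPM, so it does not bear on low genes.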

Other observations

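Some gene families were taken by symbol after the changed genes had been seen, and their values are a description. Of 237 tested solute carrier genes 12 rose and 4 fell in sorafenib, where 2.82% of all genes rose and 1.97% fell. Their median log2 fold change was 0.09 beside 0.00 over all genes. In 53 all sorafenib values lay above all untreated values and in 21 below, against 15.5% and 14.3% of all genes. SLCO4A1, of an organic anion transporter (ENSG00000101187, chr20:62642503-62685785), had 20.5, 18.9 and 16.95 CPM in untreated and 58.8, 58.3 and 54.7 CPM in sorafenib libraries (1.61 ± 0.12, adjusted p = 0.000314). SLC5A3, of the sodium-coupled myo-inositol importer (ENSG00000198743, chr21:34073578-34106260), had 35.9, 27.5 and 30.2 and 61.8, 92.9 and 83.2 CPM (1.34 ± 0.18, adjusted p = 0.00512). SLC1A1, of a glutamate transporter, and SLC4A7, of a sodium bicarbonate cotransporter, had log2 fold changes of 1.18 ± 0.15 and 1.08 ± 0.16 (adjusted p = 0.00512 and 0.00760). These 4 genes were called in each fit with 1 library left out, and none overlapped between groups.

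Of 5 tested alpha-arrestin genes, whose products are adaptors in receptor turnover and glucose uptake, 3 rose and 0 fell. TXNIP, an inhibitor of thioredoxin and of glucose uptake, had 89.99, 66.4 and 59.2 CPM in untreated and 172, 183 and 193 CPM in sorafenib libraries (1.35 ± 0.15, adjusted p = 0.00215). ARRDC3 had 90.1, 60.7 and 72.7 and 151, 169.7 and 181 CPM (1.17 ± 0.15, adjusted p = 0.00530). Both were called with each library left out. ARRDC4 had 1.74 ± 0.33 (adjusted p = 0.0237) and lost its call without untreated 2, sorafenib 2 or sorafenib 3 (up to 0.0941). In oxaliplatin the 3 genes stood at log2 fold changes of 1.37, 1.03 and 1.78, and the direct test between the drugs gave adjusted p-values of 0.925, 0.613 and 0.948.

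The near-identical chorionic gonadotropin beta genes, between which reads may be shared, were uneven among the untreated libraries. CGB5 had 48.2, 235 and 189 CPM in untreated 1 to 3 and 30.1, 22.8 and 24.6 CPM in sorafenib, and CGB8 48.9, 184 and 157 and 34.3, 25.8 and 28.6 CPM. Of 6 tested copies 4 fell, with a median log2 fold change of -2.06 in sorafenib and -1.96 in oxaliplatin, while the list stood at -1.14 in untreated 1 and at 0.68 and 0.46 in untreated 2 and 3 relative to their mean. Untreated 1 was thus the lowest untreated library for these genes, as it was for COL1A1, and 0 to 5 copies were called lower in the fits with 1 library left out.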
